A study of Mus musculus with 4 samples.

Results

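Classical monocytes of the bleomycin-injured mouse lung were defined here by their UMIs (unique molecular identifiers, 1 per captured RNA molecule). A cell had to have at least 2 UMIs of *Ly6c2*, at least 1 of *Ccr2* and at least 3 of *Lyz2*, at most 1 of *C1qa*, and none of *Cd3e*, *Flt3*, *Klrb1c*, *Cdh5*, *Pdgfra* and *Epcam*. Of 30860 cells with 200 to 7500 genes and at most 15% mitochondrial UMIs, 100 met this rule. They came from 4 mice, 2 wild-type (WT) and 2 Tubb3-/-, and all 4 had received bleomycin into the trachea at 0.8 U/kg, 14 days before their lungs were taken. The Tubb3-/- mice carried the Tubb3-Cre knockin in both copies, in which Cre sits at the start of *Tubb3* and disrupts it in every cell, so no cell type limits the loss. WT mice were littermates, and the study's methods give 8 to 11 weeks as the age of its mice and use both sexes. No uninjured lung is among these samples. Each mouse gave a whole-cell library, depleted of red cells only, and a mural cell-enriched library, from which CD31+, CD45+, EpCAM+ and TER-119+ cells had been removed. The 4 libraries of each kind were tagged and run as 1 pool.

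Classical monocytes are made in the bone marrow and leave it through CCR2, the receptor for the chemokine CCL2. They circulate for a short time, enter injured tissue and can become macrophages, or they lose Ly6C and become patrolling monocytes, which crawl along the vessel wall and depend on the nuclear receptor NR4A1. In fibrotic lungs they are known as a source of the macrophages that gather in scars.

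The whole-cell libraries held 3119 to 4179 kept cells with a median of 9436 to 12724 UMIs per cell, and the mural cell-enriched libraries 3479 to 4815 cells with 12627 to 16495. *Tubb3*, the targeted gene, had 83 UMIs in the whole-cell library of WT 1, 35 in that of WT 2, 18 in KO 1 and 17 in KO 2, so it was lower in the knockout but not at 0. *Cre* had no UMI in any WT library, 2 and 0 in the Tubb3-/- whole-cell libraries and 1 in each Tubb3-/- mural cell-enriched library. Mouse 1 of each genotype had Y-linked RNA and mouse 2 had *Xist*, so the mouse number also separates the sexes, and each genotype has 1 mouse of each. No barcode was shared between libraries of a pool, and 1 to 9 were shared between libraries of different pools. Each genotype rests on 2 mice, and p-values measure the spread between these mice.

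All 100 classical monocytes were in the whole-cell libraries, 29 in mouse WT 1, 30 in WT 2, 10 in KO 1 and 31 in KO 2. The mural cell-enriched libraries, from which CD45+ cells had been removed, gave 0 of 16700 cells, which allows a share of up to 0.018% (3 counts of the total, counting error only). A classical monocyte had 3152 to 21723 UMIs (median 10208) and 1494 to 5292 genes, and its mitochondrial share was 0.543% to 3.61%. Summed over the cells of a mouse, this made 306241 UMIs in WT 1, 316345 in WT 2, 121128 in KO 1 and 328308 in KO 2. Values of KO 1 therefore rest on the fewest cells and UMIs. All 100 cells had UMIs of *Ptprc*, which encodes CD45 and marks blood-derived cells.

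The rule used *Ly6c2*, *Ccr2*, *Lyz2* and *C1qa*, so their levels describe the choice and are not a finding. *Ly6c2* had 2 to 148 UMIs per cell (median 12), *Ccr2* 1 to 20 (median 4) and *Lyz2* 3 to 606 (median 277.5). Just inside the limit, 18 cells had 2 or 3 *Ly6c2* UMIs and a *F13a1* level of 411 CPM (UMIs of a gene scaled to 1000000 UMIs summed over the cells). Just outside, 24 cells with 1 *Ly6c2* UMI that met every other condition had 257 CPM of *F13a1*. The *Flt3* condition left out 69 cells that met all others, and these had 3079 CPM of *Plac8* and 678 of *F13a1*. The conditions on *Klrb1c*, *Cdh5* and *Cd3e* left out 22, 13 and 11 such cells. At the lower limit of *Lyz2*, 3 cells with 3 to 5 UMIs had no UMI of *F13a1* or *Csf1r*.

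Some members carried RNA of another cell. In mouse KO 1, 1 cell had 100 UMIs of *S100a8* and 13 of *Retnlg*, which mark neutrophils, and no other member had more than 2 of *S100a8*. In KO 2, 1 cell had 402 UMIs of *Acta2*, the smooth muscle actin, and the next cell had 5. In each mouse, 1 cell had UMIs of both *Xist* and Y-linked genes. *Lyz2* was at 7 UMIs or fewer in 4 cells and at 52 or more in the others. The doublet caller marked 2 of 14160 whole-cell barcodes (0.0141%), too few to have worked in that pool, and none of the members. The gene comparison is therefore also given without all cells with these signs, which leaves 26, 28, 8 and 28 cells.

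Genes that define classical monocytes were found in 54% to 98% of the members. *Plac8*, a small cysteine-rich protein of myeloid cells, was at 3024, 4735, 2881 and 5056 CPM in mice WT 1, WT 2, KO 1 and KO 2, and 98% of the cells had a UMI. *Chil3*, a chitinase-like protein, was at 852, 1973, 2279 and 1867 CPM and was found in 92%. *F13a1*, the A subunit of coagulation factor XIII, was at 496, 547, 760 and 707 CPM and was found in 89%. These 3 genes were not used by the rule, and each was present in every mouse. *Vcan* (versican) had a UMI in 55% of the cells, *Hp* (haptoglobin) in 87% and *Cd14*, the co-receptor for bacterial lipopolysaccharide, in 94%. *Csf1r*, the receptor for the monocyte growth factor CSF1, was found in 97%, *Ms4a6c* in 97% and *Ms4a4c* in 92%. *Fcgr1*, the high-affinity IgG receptor, was found in 54%. The label therefore rests on markers the rule did not use, and not all of them are particular to these cells.

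Against other cells of the same libraries the same genes are given as a description, with no test, since the same UMIs chose the cells. The members were set beside 3 gates. Ace/Treml4 cells, chosen for *Ace* and *Treml4* with little *Ly6c2* and without alveolar macrophage genes, numbered 86 in all. C1q cells, chosen for *C1qa* and *C1qb*, numbered 422, and Retnlg/Csf3r cells, with neutrophil genes, 384. Their CPM values are from the whole-cell libraries only, with 75, 250 and 383 of these cells. Ace/Treml4 cells carried RNA of other cells. Their fibroblast markers summed to 1455, 3116, 9438 and 18860 CPM in WT 1, WT 2, KO 1 and KO 2. Mural markers were at 201, 4092, 765 and 6094 and neutrophil markers at 3045, 4950, 129 and 191. Their means may thus not be those of patrolling monocytes alone. *F13a1* averaged 627 ± 126 CPM (SD over 4 mice) in classical monocytes and 48.9 ± 43.3 in Ace/Treml4 cells, 122 in C1q cells and 1.73 in Retnlg/Csf3r cells. *Ms4a4c* averaged 598 ± 142 CPM against 157 ± 133 in Ace/Treml4 cells and 17.2 in C1q cells. *Cd14* was less particular, at 2357 ± 600 CPM against 563 in Ace/Treml4 cells, 1915 in C1q cells and 2651 in Retnlg/Csf3r cells. *Chil3* was at 5833 CPM in 321 cells with no *Ly6c2* UMI that met every other condition of the rule.

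**Figure D1:**
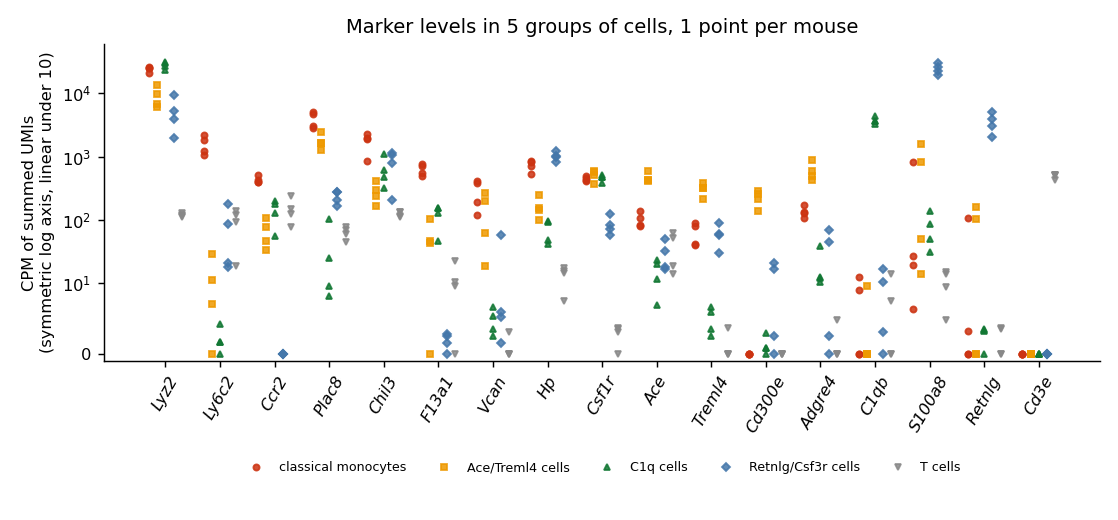
CPM of summed UMIs (symmetric log axis, linear under 10) of 17 marker genes in 5 groups of cells, with 1 point per mouse. *F13a1* and *Plac8* are higher in classical monocytes of each mouse than in any other group, *Cd300e* is at 0 in all 4 mice there, and 1 mouse stands out in *S100a8* and *Retnlg*, KO 1, through the single cell described above.

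Genes of the patrolling monocyte were low. *Cd300e*, an activating receptor of patrolling monocytes, had a UMI in 0 of 100 cells, which allows a share of up to 3%, and averaged 224 ± 62.6 CPM in Ace/Treml4 cells. *Ace*, the angiotensin-converting enzyme, was at 81.6, 108, 82.6 and 140 CPM against a mean of 464 in Ace/Treml4 cells. *Treml4* was at 42.5, 41.1, 90.8 and 79.2 CPM against 312. *Adgre4* averaged 136 ± 27.6 CPM against 599, *Itgal* (the integrin alpha chain of LFA-1) 228 ± 42.9 against 846 and *Spn* (CD43) 60.4 ± 33.7 against 247. *Nr4a1* was also below them, at 697 ± 246 CPM against 1119 ± 187, and *Cx3cr1*, at 126 ± 13.9 against 191 ± 89.8, overlapped.

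Macrophage genes were present in part. *Apoe*, a lipid carrier, was at 1871, 1337, 3228 and 2330 CPM, well below the mean of 14720 in C1q cells. *Fn1* (fibronectin) was at 983, 863, 1115 and 786 CPM, against 1829 in C1q cells and 188 in Ace/Treml4 cells. *Trem2*, a lipid-sensing receptor of macrophages, was at 29.4, 37.9, 90.8 and 91.4 CPM against 428 in C1q cells. *Spp1* (osteopontin) averaged 90.3 ± 13.1 CPM against 7256 in C1q cells and 116 in T cells. With each cell thinned to 2000 UMIs, 20% of members and 19.3% of 161 T cells had an *Spp1* UMI. The share of members was thus near that of T cells, and whether it is background RNA was not tested. *Arg1* (arginase) had 1 UMI in 1 cell. *Mki67*, a gene of dividing cells, had a UMI in 3% of cells and none after thinning.

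Among secreted factors, *Thbs1* (thrombospondin 1, an activator of latent TGF-β) averaged 2778 ± 538 CPM against 1207 in Ace/Treml4 cells, 510 in C1q cells and 4684 in Retnlg/Csf3r cells. *Il1b* was at 1590, 847, 2056 and 932 CPM, *Cxcl2* at 1012, 281, 1709 and 448 and *Tgfb1* at 480, 471, 471 and 277. The values of *Cxcl2* differed more between mice of 1 genotype than between genotypes. *Ccl2*, the ligand of CCR2, was at 154, 75.9, 107 and 128 CPM and had a UMI in 32% of cells. *Tubb3* and *Cre* had no UMI in any of the 100 cells, which allows a share of up to 3% of cells with a UMI for each. *Ly6c1*, a near-identical copy of *Ly6c2*, was at 10.7 ± 3.10 CPM, and reads of the 2 genes may have been split or dropped in counting.

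The members were not uniform. Cells were grouped by their summed UMIs of *Ace* and *Treml4*, a limit chosen after the values were seen, and the contrast is a description. Of 100 cells, 45 had none (15 in WT 1, 14 in WT 2, 3 in KO 1, 13 in KO 2), 18 had 1 and 37 had 2 or more (9, 10, 4 and 14). Their median depth was 9874, 10221 and 10609 UMIs. In cells with 2 or more, *F13a1* was at 296 CPM against 768 in cells with none, *Vcan* at 113 against 390 and *Fn1* at 558 against 1220. *Hp* was at 409 against 854 CPM and *Cd14* at 1920 against 2550. Each of these 5 genes was lower in cells with 2 or more UMIs in 4 of 4 mice. The reverse held for *Adgre4* (212 against 86.0 CPM), *Itgal* (318 against 141), *Pou2f2*, a B cell and monocyte transcription factor (457 against 223), *Cd36*, a lipid scavenger receptor (89.4 against 41.9) and *Fcgr4*, an IgG receptor (61.2 against 22.1), each higher in 4 of 4 mice. *Plac8* was higher as well, at 4480 against 3710 CPM. *Ly6c2*, which the rule used, was at 1260 against 1610 CPM and lower in 3 of 4 mice, while *Chil3* went down in 2 mice and up in 2. Not all patrolling genes followed, since *Spn* was at 72.9 against 70.6 CPM and higher in 1 mouse, and *Cx3cr1* at 129 against 113 and higher in 3. *Cd300e* was at 0 in all 3 groups.

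**Figure D2:**
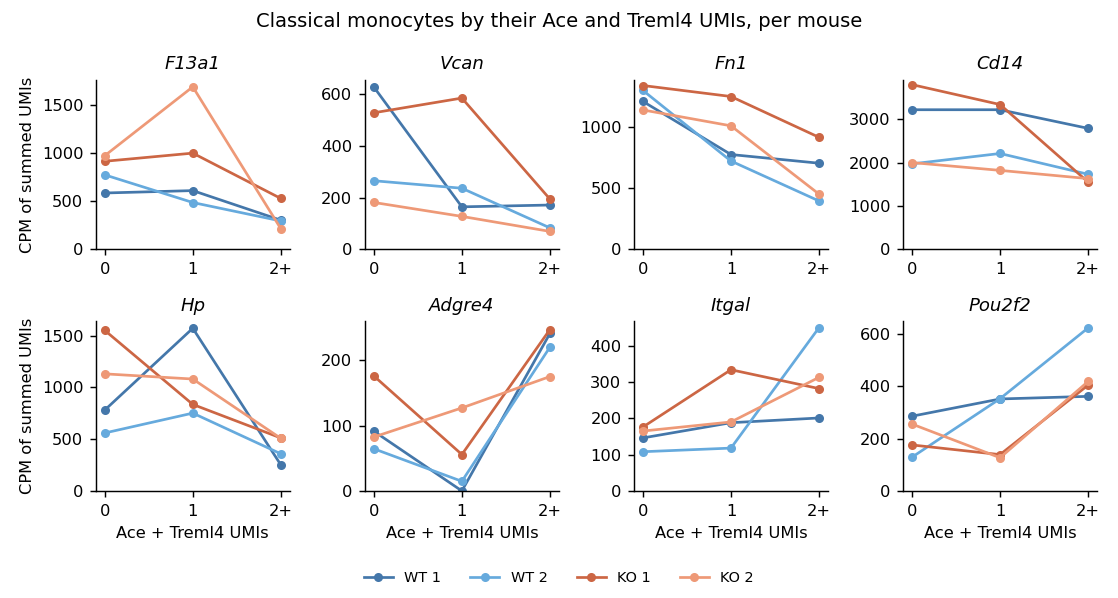
CPM of summed UMIs for 8 genes in classical monocytes with 0, 1 and 2 or more UMIs of *Ace* plus *Treml4*, with 1 line per mouse. *F13a1*, *Vcan*, *Fn1*, *Cd14* and *Hp* end lower at 2 or more than at 0 in each mouse, and *Adgre4*, *Itgal* and *Pou2f2* end higher.

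Whether loss of *Tubb3* changed the number of classical monocytes was compared as their share of kept whole-cell barcodes. The share was 0.851% in WT 1 (29 of 3406, exact Clopper-Pearson 95% interval 0.571% to 1.22%) and 0.962% in WT 2 (30 of 3119, 0.650% to 1.37%). It was 0.239% in KO 1 (10 of 4179, 0.115% to 0.440%) and 0.897% in KO 2 (31 of 3456, 0.610% to 1.27%). These intervals cover counting error only. KO 1 lay below the other 3 mice and KO 2 lay between the WT mice. WT mice averaged 0.907% ± 0.0781 and Tubb3-/- mice 0.568% ± 0.465 (SD over 2 mice each), a log2 ratio of -0.67. Permuting the genotype of the 4 mice (exact test, two-sided) gave p = 0.667, and 0.333 is the smallest that 2 against 2 mice allow. Without KO 1 the log2 ratio was -0.02, and without KO 2 it was -1.92, so the size of the difference depends on which mouse is left out. As a share of cells with a *Ptprc* UMI the values were 1.29%, 1.6%, 0.410% and 1.53%. Ace/Treml4 cells made up 0.499%, 0.577%, 0.455% and 0.608% of the same barcodes (17, 18, 19 and 21 cells). KO 1 was the lowest in their share but not in their number, and these shares were not tested. With each cell thinned to 2000 UMIs before the rule was applied, 48 cells met it, at 0.181%, 0.559%, 0.122% and 0.597%. The log2 ratio was then -0.04, and WT 1 and KO 1 were both below the other mice.

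**Figure D3:**
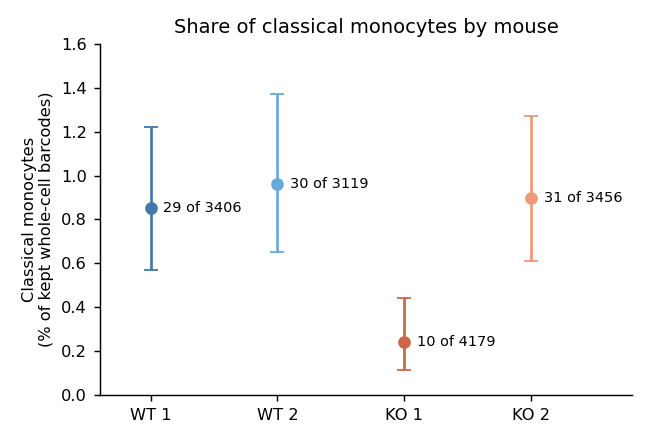
Classical monocytes as a percent of kept whole-cell barcodes in each mouse, with the exact 95% binomial interval and the number of cells. KO 1 (0.239%) lies below the others, and KO 2 (0.897%) lies between WT 1 (0.851%) and WT 2 (0.962%).

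Gene levels were compared between genotypes on UMIs summed per mouse, with 2 WT against 2 Tubb3-/- mice. Of 4489 genes tested, 0 passed 0.05 in the quasi-likelihood test of edgeR (Benjamini-Hochberg adjusted), and the smallest adjusted p was 0.532. At an unadjusted p under 0.05 there were 241 genes (5.37%), 153 higher in Tubb3-/- mice (3.41%) and 88 lower (1.96%). DESeq2 called 3 (0.0668%), *Ccl3*, *H2-Aa* and *H2-Eb1*. With the mouse number as a block, which here also separates the sexes, edgeR called 31 (0.691%), 22 higher (0.49%) and 9 lower (0.2%). That fit leaves 1 residual degree of freedom, and *Acta2*, whose level rests on 1 cell of KO 2, was among its calls (adjusted p = 1.916e-15). The Tubb3-/- pair lay above the WT pair, without overlap, for 832 genes (18.5%) and below it for 823 (18.3%). The genes named next are among the 10 of smallest p in each direction with a mean of at least 20 normalised CPM (CPM after TMM scaling), and all of these 20 have groups that do not overlap, which their choice by p favours. On simulated counts with 200 of 4489 genes changed, this test found 14.5% of the changes at a log2 change of 1 and 75% at 2, so a change of 2-fold would mostly be missed.

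**Figure D4:**
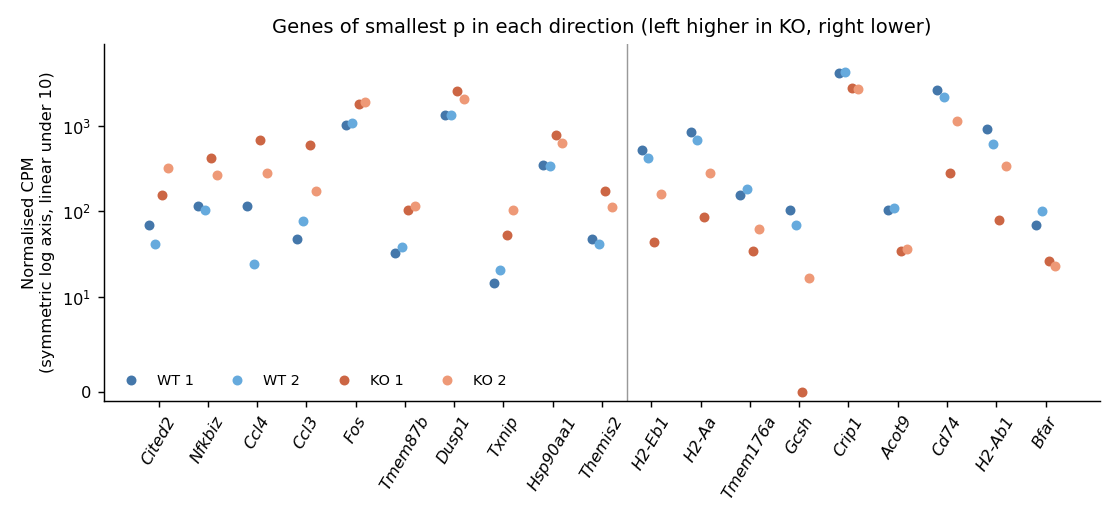
Normalised CPM (symmetric log axis, linear under 10) of 19 of the genes of smallest p in each direction in classical monocytes, with 1 point per mouse. The left genes are higher and the right genes lower in the Tubb3-/- pair, without overlap. None of them passed an adjusted p of 0.05 in the main edgeR fit (all members, no block). Some passed in alternatives, such as *Ccl3*, *H2-Aa* and *H2-Eb1* by DESeq2.

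On the side of higher values stood early response genes, which are switched on within minutes of a stimulus. *Fos*, a subunit of the transcription factor AP-1, was at 1012 and 1065 normalised CPM in WT 1 and WT 2 and at 1799 and 1870 in KO 1 and KO 2, the order used for all values here. Its log2 difference was 0.82 ± 0.18 (SE), with an adjusted p of 0.532 by edgeR and 0.0203 with the block. *Dusp1*, a phosphatase that switches off MAP kinases, was at 1321 and 1320 against 2559 and 2037 normalised CPM. *Hsp90aa1*, an inducible chaperone, was at 345 and 340 against 770 and 623. The groups did not overlap for any of these 3 genes. *Nfkbiz*, a regulator of NF-κB, was at 115 and 103 against 415 and 262 normalised CPM (log2 difference 1.59 ± 0.33, adjusted p with the block 0.000928). *Cited2* was at 68.2 and 41.2 against 156 and 318, and *Txnip*, a thioredoxin inhibitor, at 14.4 and 20.6 against 51.9 and 102.

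Over the whole list of 21 early response and heat shock genes, 19 could be tested. None was called without the block and 3 with it, *Fos*, *Dusp1* and *Hsp90aa1*. Without it, 12 had an unadjusted p under 0.05 in the higher direction and 0 in the lower, beside 3.41% and 1.96% of all genes. The Tubb3-/- pair lay above the WT pair for 14 of the 19 and below it for 1, *Jund*. The median log2 difference was 0.79, against -0.01 over all genes tested. It was 0.55 with the cells that carried signs of another cell left out and 0.62 without mouse KO 1, and it kept its sign in all 19 alternatives. With those cells left out, 9 of 19 had an unadjusted p under 0.05 in the higher direction, beside 3.52% of all genes. Without KO 1, mouse KO 2 alone was higher than each WT mouse for 15 of 19 (34.2% of all genes), and 7 of 19 passed an adjusted p of 0.05 (0.937% of all genes in that direction), in a fit in which KO 2 is assumed to vary like the WT mice. *Jun*, for example, was at 266 and 344 against 519 and 600 normalised CPM, *Junb* at 1156 and 1247 against 1712 and 1722 and *Nr4a1* at 470 and 622 against 1029 and 869. *Ier3* and *Fosb* did not separate the groups.

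The summed level of the list was 9355 and 9325 CPM in the WT pair and 15750 and 13740 in the Tubb3-/- pair. In T cells of the same libraries it was 6454 and 7681 against 9395 and 7947 CPM, also without overlap. In Ace/Treml4 cells it was 9938 and 11970 against 12510 and 10390, which overlapped. In C1q cells it was 10440 and 9269 against 9701 and 10520, and in Retnlg/Csf3r cells 13640 and 12960 against 13670 and 13130. Whether the difference in monocytes exceeds that in these other cells was not tested.

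*Ccl3* and *Ccl4*, inflammatory chemokines that draw leukocytes, had the largest log2 differences among the genes named as higher. *Ccl3* was at 46.7 and 75.6 normalised CPM against 597 and 174, with a log2 difference of 2.54 ± 0.56 and an edgeR adjusted p of 0.532, or 6.374e-08 with the block. *Ccl4* was at 115 and 24.1 against 683 and 279 normalised CPM, with a log2 difference of 2.73 ± 0.59. Few cells carried this RNA. *Ccl3* had UMIs in 4 of 29, 3 of 30, 3 of 10 and 11 of 31 cells, and a single cell of KO 1 held 50.7% of that mouse's *Ccl3* UMIs. Without cells with signs of another cell the log2 difference of *Ccl3* was 1.63 and did not pass (adjusted p = 0.384). Of 15 chemokine and cytokine genes tested, 2 had an unadjusted p under 0.05 in the higher direction and 1, *Ccl9*, in the lower. Over all genes tested these shares were 3.41% and 1.96%.

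Genes of MHC class II, which present peptides to CD4+ T cells, were on the side of lower values. *H2-Aa* was at 833 and 677 normalised CPM in the WT pair, against 86.5 and 276. Its log2 difference was -1.92 ± 0.39, with an adjusted p of 0.532 by edgeR, 1.034e-08 with the block and 0.0222 by DESeq2. *H2-Eb1* was at 517 and 423 against 43.2 and 157 (log2 difference -2.03 ± 0.41), *H2-Ab1* at 908 and 601 against 77.8 and 335 and *Cd74*, the invariant chain that escorts class II molecules, at 2623 and 2137 against 277 and 1135. The pairs did not overlap for any of these 4 genes, all 4 were called with the block, and KO 1 was the lowest. With the cells that carried signs of another cell left out, *H2-Aa* (log2 difference -2.26), *H2-Ab1* (-2.43) and *Cd74* (-2.02) each passed, with an edgeR adjusted p of 0.00856, and these 3 were the only calls of that fit (0.0739% of its genes). Of 15 genes of antigen presentation tested, the Tubb3-/- pair lay below the WT pair for 7 and above it for 1, *Cd86*. Over all genes tested these shares were 18.3% and 18.5%. Of these 15, 4 had an unadjusted p under 0.05, all lower, beside 1.96% of all genes in that direction. The median log2 difference was -0.28 and kept its sign in 19 alternatives. Without KO 1, 4 of 16 genes passed an adjusted p of 0.05 in the lower direction (0.663% of all genes), with the remaining Tubb3-/- mouse assumed to vary like the WT mice. Of the class I genes, *H2-D1* was at 2415 and 2350 against 1582 and 2319 normalised CPM, without overlap (log2 difference -0.28 ± 0.20). *H2-K1*, at 1396, 1344, 839 and 1401, and *B2m*, at 2806, 3003, 2464 and 3116, overlapped. Summed over the list of antigen presentation, the level was 12060 and 11420 CPM against 7182 and 9750. It was lower without overlap in C1q cells (36650 and 31160 against 26730 and 29030) and Ace/Treml4 cells (9402 and 9719 against 8165 and 7128). In Retnlg/Csf3r cells (5489 and 6608 against 6379 and 5850) and T cells (6951 and 5673 against 7224 and 6404) it overlapped. Whether the difference in monocytes exceeds these was not tested.

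Class II genes are switched on together through a short promoter module, in which an X box and a Y box lie a fixed distance apart and are bound by RFX and NF-Y. The promoters of the 2 class II genes with the smallest p are shown to let the module be seen, from RefSeq on GRCm38.p6, 250 bases before to 50 after the start of the gene, in the direction of transcription. *H2-Aa* lies on chromosome 17, minus strand, and its window is chr17:34287774-34288073. *H2-Eb1* lies on the plus strand, with the window chr17:34305617-34305916. Capitals mark the X box (CTNGCAACT) and the Y box (CTGATTGG), which were searched for on both strands.
H2-Aa: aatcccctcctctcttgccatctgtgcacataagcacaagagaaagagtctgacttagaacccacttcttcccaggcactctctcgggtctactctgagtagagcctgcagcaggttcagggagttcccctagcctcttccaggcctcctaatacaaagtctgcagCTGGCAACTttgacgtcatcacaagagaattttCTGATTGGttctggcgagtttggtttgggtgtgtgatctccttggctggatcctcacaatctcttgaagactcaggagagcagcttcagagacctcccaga
H2-Eb1: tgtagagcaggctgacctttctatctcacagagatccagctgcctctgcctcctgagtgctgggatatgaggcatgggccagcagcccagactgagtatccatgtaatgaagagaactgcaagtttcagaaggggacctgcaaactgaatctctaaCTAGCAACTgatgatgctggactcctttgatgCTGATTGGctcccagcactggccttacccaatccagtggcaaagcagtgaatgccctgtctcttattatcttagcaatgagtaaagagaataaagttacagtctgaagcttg
Each window holds each box 1 time. The Y box begins 51 bases before the start in *H2-Aa* and 62 in *H2-Eb1*, the X box 84 and 94, and 24 and 23 bases lie between the boxes. Of 32851 promoters of the same length, 4.1% hold the Y box and 0.898% the X box. A match describes the letters of the window and is not evidence of binding in these cells.

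Few cells held most of the *Cd74* UMIs in WT 1, WT 2 and KO 2, but the other members differed in the same direction. With a limit of 50 *Cd74* UMIs, chosen after the values were seen, 5 cells of WT 1, 4 of WT 2, 0 of KO 1 and 2 of KO 2 were at or above it. They held 75.4% and 69.6% of the *Cd74* UMIs of the WT mice and 63.0% of those of KO 2. In the other members *Cd74* was at 725 and 688 CPM in the WT pair against 264 and 416, and *H2-Ab1* at 145 and 142 against 74.3 and 97.5 CPM, and both genes were again without overlap. Of the 11 cells with 50 or more *Cd74* UMIs, all had *Csf1r*, 6 had 2 or more UMIs of *Ace* plus *Treml4*, 3 had *Cd209a*, a gene of monocyte-derived dendritic cells, and 1 had the B cell gene *Cd79a*. The summed level of 9 dendritic cell markers was 65.3 and 108 CPM against 0 and 36.6, so it moved with the class II genes, and its part in that difference was not tested. After thinning to 2000 UMIs, 24.1%, 30%, 20% and 25.8% of cells had an *H2-Ab1* UMI, with an exact permutation p of 0.667, which does not separate the genotypes.

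**Figure D5:**
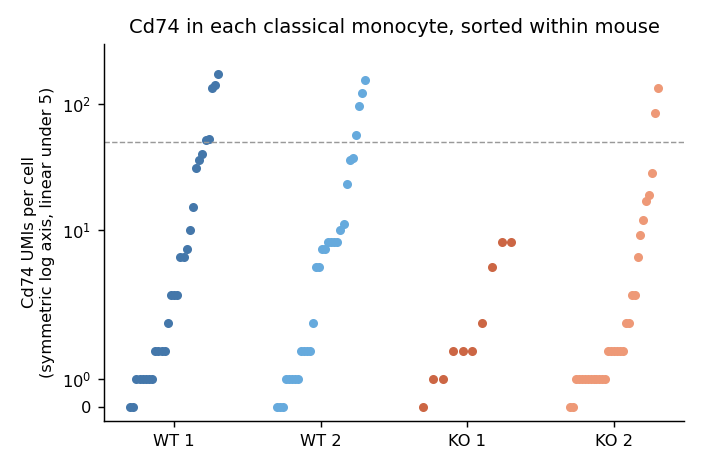
*Cd74* UMIs in each classical monocyte (symmetric log axis, linear under 5), sorted within mouse, with the limit of 50 UMIs as a dashed line. Above it are 5 cells of WT 1, 4 of WT 2, 0 of KO 1 and 2 of KO 2.

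Other genes on the lower side were *Crip1*, a cysteine-rich LIM protein, at 4163 and 4196 against 2732 and 2647 normalised CPM (log2 difference -0.64 ± 0.15), *Tmem176a* at 154 and 182 against 34.6 and 62.3 and *Acot9*, an acyl-CoA thioesterase of mitochondria, at 104 and 110 against 34.6 and 36.1. *Gcsh*, of the glycine cleavage system, had 29 and 20 UMIs against 0 and 5. *Bfar* had 19 and 29 against 3 and 7. The remaining genes named as higher were *Tmem87b* (32.3 and 37.8 against 104 and 115 normalised CPM) and *Themis2*, a signalling protein of B cells and macrophages (46.7 and 41.2 against 173 and 112).

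The lists of monocyte identity showed no called gene in the main edgeR fit (all members, no block). Some core monocyte genes were called when KO 1 was left out, and the median of that list changed sign in 4 of 19 alternatives. Of 19 core monocyte genes tested, the Tubb3-/- pair lay above the WT pair for 5 and below it for 2, with a median log2 difference of -0.05. Over all genes tested, the pair lay above for 18.5% and below for 18.3%. *F13a1* was at 546 and 595 against 796 and 761 normalised CPM (log2 difference 0.45 ± 0.22) and *Ifitm6* at 675 and 691 against 406 and 400 (-0.76 ± 0.23), neither with a passing adjusted p. In the patrolling list, 5 of 13 lay above and 3 below. Among 14 genes of macrophage differentiation, 6 lay above and 1 below. Of these 14, 4 had an unadjusted p under 0.05, all higher, beside 3.41% of all genes in that direction. With the block *Ctsl* and *Apoe* were called. The 4 were *Trem2* (32.3 and 41.2 against 95.1 and 98.4 normalised CPM), *Ctsl*, a lysosomal protease (183 and 89.4 against 303 and 351), *Apoe* (2056 and 1454 against 3381 and 2509) and *Pla2g7* (165 and 241 against 441 and 299). The median of this list was 0.19 and changed sign in 1 of 19 alternatives.

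Interferon genes did not separate the genotypes. Of 29 tested, 3 lay above and 4 below (18.5% and 18.3% of all genes), with a median log2 difference of -0.02. *Cxcl10*, an interferon-induced ligand of CXCR3, had 1 and 2 UMIs against 3 and 27, and 13 of the 27 were in 1 cell of KO 2. These were too few to pass the filter on low counts. The edgeR fit with no such filter called *Cxcl10* (log2 difference 3.44, adjusted p = 0.00265). Among 28 transcription factors, 5 lay above and 4 below, near the shares of all genes. Of these 28, 3 had an unadjusted p under 0.05 in the higher direction and 1 in the lower. *Klf2*, a factor that restrains inflammatory genes, was at 370 and 457 against 752 and 679 normalised CPM (log2 difference 0.78 ± 0.24). *Cebpd* was at 32.3 and 65.3 against 86.5 and 148. Of 19 trafficking receptors and adhesion genes, 7 lay above and 5 below. *Itga4*, the alpha 4 integrin used to enter tissue, was at 427 and 402 against 657 and 679. In the lists of innate sensing, growth factor receptors, coagulation and matrix, and glycolysis and hypoxia, no more than 3 genes each had an unadjusted p under 0.05, all higher. These lists had 16 to 26 genes tested, and 3.41% of all genes were higher at that p.

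Markers of other cells differed between mice. The sum of 11 neutrophil markers was 265, 300, 2279 and 292 CPM in WT 1, WT 2, KO 1 and KO 2, and that of 9 mural cell markers 68.6, 75.9, 49.5 and 1879. Each high value came from the single cell named above, and *Acta2* had a log2 difference of 4.11 with it and 0.55 without it. The sums of 9 T and NK cell markers (33.0 to 186 CPM), 9 endothelial markers (82.6 to 134) and 5 erythroid genes (15.2 to 57.8) overlapped between genotypes. Fibroblast markers, at 1208, 1018, 883 and 1867 CPM, and B cell markers, at 372, 104, 116 and 116, overlapped as well. Alveolar macrophage markers, at 42.5 and 79.0 against 90.8 and 107 CPM, did not, and they moved with the macrophage differentiation genes. In T cells of the same libraries these markers were at 146 and 53.3 against 67.4 and 70.0 CPM. Among them, *Ear2* had 7 and 12 UMIs against 4 and 27 in the members, and *Siglecf* and *Fabp1* had none. The part of these markers in the difference of the macrophage differentiation genes was not tested. Epithelial markers were at 949 to 1234 CPM, against 1417 to 1512 in T cells of the same libraries.

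Shares of cells with a UMI were compared for 12 genes after each cell was thinned to 2000 UMIs, and no comparison reached an adjusted p under 1. *Chil3* was found in 65.5%, 60%, 70% and 74.2% of cells of WT 1, WT 2, KO 1 and KO 2, against 19.3% of T cells. *Vcan* was found in 31.03%, 23.3%, 40% and 16.1%, against 0 of 161 T cells. The Tubb3-/- pair was above the WT pair for *Chil3*, with an exact permutation p of 0.333, the smallest that 4 mice can give.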

How the data were processed

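The 4 bleomycin-injured lungs, 2 of each genotype, gave 8 libraries in 2 pools. The authors deposited UMI counts per gene and cell, whole numbers without normalization, made with Cell Ranger 7.1.0 on mm10 with an added *Cre* gene, per the labels and methods. CellPlex sample tags in the same files were set aside, and cells were linked to mice by the tag that led their library. Whether counting used strand is not given in the sources used here.

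Cells with 200 to 7500 genes and at most 15% mitochondrial UMIs were kept, and members were found by the UMI rule. Members and gene lists were chosen with earlier results of these data known. UMIs of members were summed per mouse and compared by a quasi-likelihood F test in edgeR 4.0.16 (R 4.3.3), after filterByExpr and TMM scaling, p-values adjusted by Benjamini-Hochberg over every gene in the fit, threshold 0.05. DESeq2 1.42.0 was an alternative. A positive log2 difference means a higher level in the Tubb3-/- mice. CPM is a gene's UMIs scaled to 1000000 summed UMIs, and normalised CPM includes TMM scaling. Shares were compared with exact two-sided permutation tests over 4 mice, and shares of cells with a UMI after thinning each cell to 2000 UMIs. Doublets were scored with Scrublet in scanpy 1.11.5, which marked 2 whole-cell barcodes and 644 of 16700 mural cell-enriched ones (3.86%). The edgeR fit was tested on simulated counts.

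Genes were named by a rule: with fewer than 10 genes called in a direction, the 10 of smallest unadjusted p with a mean of at least 20 normalised CPM, and any gene of the 31 lists with its list's counts. Some genes that this rule names are not reported here. The comparison of library kinds could not be made, since no member was in the mural cell-enriched libraries. Positions and promoters are from GRCm38.p6 in RefSeq. Precision is limited by 10 to 31 cells per mouse. Alternatives were another scaling, no filter on low counts, leaving out each mouse, a replicate block, other limits of the rule, and leaving out members with signs of another cell, the last chosen after seeing the data.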

Additional observations from a re-analysis of the deposited data

How the results depend on the processing

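The log2 ratio of shares (-0.67) kept its direction in all 14 alternatives and no test passed in any. It ranged from -1.92 to -0.02 when 1 mouse was left out and was -0.04 when the rule was applied after thinning. Of the genes by genotype, 0 were called by edgeR, also with RLE size factors, with *Ly6c2* at 4 or more UMIs, with no *C1qa*, without marked doublets, with a 10% mitochondrial limit, and without the *S100a8*, *Acta2* or low *Lyz2* cells. DESeq2 called 3, the fit with no filter on low counts 37, the thinned members 3, and the fits without cells with both *Xist* and Y-linked UMIs and without all cells with signs of another cell 3 each, the last 2 chosen after seeing the data. Leaving out 1 mouse gave 19 to 164 calls, 82 without KO 1 and 164 without KO 2, in fits where the lone mouse is assumed to vary like the others. The replicate block called 31. The labels do not say that mice of the same number are paired, but number 1 had Y-linked RNA and number 2 *Xist* in both genotypes, so the block is also one by sex (correlation of deviations 0.105 over 3302 genes for number 1). Under the block the log2 ratio of shares was -0.97 (-1.83 for number 1 and -0.10 for number 2). *H2-Aa* was called in 10 of 19 alternatives and *Cd74* in 9, all lower. *Acta2* (4.11) ranged from -0.35 without KO 2, a reversal, to 4.97 without KO 1. Without thinning, the difference in the share of cells with a UMI, in percentage points, reversed to -3.12 for *Chil3* (9.34 thinned) and to -3.44 for *C1qb* (3.23 thinned). Leaving out 1 mouse moved it from -3.45 to 0 for *Arg1*, 0 to 6.45 for *C1qb*, -1.67 to 4.79 for *Cxcl10* and -11.1 to 12.8 for *Vcan*. The cause of these changes was not tested. The fits of mural cell-enriched libraries were not run, since these hold no member. With 10 cells in KO 1, differences of 2-fold in single genes were mostly below what the test can find.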
